A study of Mus musculus with 3 samples.

Results

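The genes described here encode the junctions and intermediate filaments of epithelial cells, with a few regulators of the epithelial state and a few mesenchymal counterparts. They were chosen by name, as 44 gene symbols matched to the gene-name column of the array, a rule that uses no measured value, though the names were listed with earlier results of these data known. The 44 genes, of 30458 gene symbols on the array, are read by 59 probes on 77 spots, of 39429 probes and 43020 spots that are not controls, and 13 of them have several probes. The genes fall into 5 groups by role, with 6 cadherins and catenins, 16 tight junction genes, 7 desmosome genes, 8 intermediate filament genes and 7 epithelial regulators. The name of the set holds for most but not all members. Cdh2, Cdh11 and Vim are better known from mesenchymal and neural cells, Krt5, Krt14 and Krt17 from stratified rather than simple epithelia, and Cldn5 from endothelium.

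The samples were embryoid bodies, aggregates of mouse embryonic stem cells that differentiate in suspension, kept for 10 days in low attachment plates with no LIF, the factor that holds stem cells in self-renewal. One genotype carried a Dido3 protein truncated at its C terminus (Dido3deltaCT mutant), and the other was the wildtype control grown in parallel under the same conditions. RNA from 3 mutant and 3 wild type samples was hybridised in pairs on 3 two-colour arrays, to ask how the truncation alters the transcripts of differentiating cells. The dye Cy5 marked mutant RNA on replicate 2, and Cy3 marked it on replicates 1 and 3. The labels call the replicates biological. Whether they come from separate cell lines was not established here, so p-values may measure only the spread between cultures, and genotype cannot then be told apart from other differences between lines.

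Epithelial cells hold together through adherens junctions, built on cadherins and the catenins that tie them to actin. They also have tight junctions, built on claudins and occludin and tied to actin by scaffold proteins, and desmosomes, whose plaques anchor keratin filaments. Keratins assemble as pairs of 1 type I and 1 type II protein, and simple epithelia, the earliest of the embryo, are marked by Krt8 with Krt18. Embryonic stem cells are themselves held together by E-cadherin and EpCAM, the products of Cdh1 and Epcam, and cells that leave an epithelium for a mesenchymal state exchange E-cadherin for N-cadherin, the product of Cdh2, and gain vimentin.

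Over the whole array, 46.5% to 62.5% of the spots other than controls were well above background for mutant RNA and 48.5% to 74.4% for wild type RNA. Of the 44 members, 29 to 39 were well above background in a mutant sample and 36 to 41 in a wild type sample. Among 15428 genes tested, 32 were higher and 14 lower in the mutant at a limma adjusted p under 0.05. The probe used for Dido1, the targeted gene, gave log2 ratios of mutant over wild type of 1.57, 2.16 and 1.48 on the 3 arrays. The limits of the deletion are not in the labels, so this probe does not check the genotypes.

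A gene was tested if one of its probes stood well above background in all 3 samples of the mutant or of the wild type, and 34 of the 44 members passed. Of these, Cldn2 (in 1 mutant sample), Cldn9, Dsg2, Esrp2 and Sfn (in 2 mutant samples each) passed through the wild type alone, so their mutant signal is partly at background. Values are log2 ratios of mutant over wild type, so 1 is a 2-fold higher level in the mutant, given as means over the 3 arrays ± the SE from limma. Levels are log2 intensities of each sample after normalization, read within 1 probe only. These are bulk samples, in which fewer cells of a type and less RNA per cell cannot be told apart. Because 1 array of 3 had swapped dyes, dye effects cancel only in part in a mean.

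None of the 34 tested members passed the threshold in either direction. At a limma adjusted p under 0.05, 0 were higher, against 0.207% of all genes tested, and 0 were lower, against 0.0907%. At an unadjusted limma p under 0.05 there were 4 of 34 above 0 (Cdh3, Esrp1, Grhl2 and Grhl3) and 4 below 0 (Cdh11, Ocln, Cldn12 and Krt8). All 15428 genes tested gave 1755 and 1747, shares close to those of the members. With the adjusted p limit raised to 0.1, Grhl2 and Grhl3 were called higher, against 4.22% of all genes, and Cdh11 lower, against 3.80%. The median log2 ratio was 0.0025 over the 34 members and 0.035 over all genes tested, and the median size without sign was 0.497 and 0.433. The set as a whole was therefore centred where all genes were, and individual members lay on both sides.

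Direction was repeated on all 3 arrays by 16 of the 34. Those above 0 throughout were Cdh3, Esrp1, Grhl2, Grhl3, Krt14, Pkp2 and Tjp3, 7 members where 21.7% of all genes did so. Those below 0 throughout were Cdh11, Cldn2, Cldn12, Dsg2, Dsp, Esrp2, Krt8, Krt18 and Ocln, 9 members where 22.7% of all genes did so. Cldn2, Dsg2 and Esrp2 among them had passed the filter only through the wild type, the genotype where they are brighter. A mean of at least 1 in size in addition left Grhl2 and Grhl3 above, against 7.00% of all genes, and Cdh11 and Ocln below, against 6.70%. Levels of the 3 mutant samples lay entirely above those of the 3 wild type samples for Grhl2 and Grhl3, against 11.0% of all genes, and entirely below for Ocln, against 10.3%. As a share, the members were fewer than all genes in the count of groups that do not overlap, and close to all genes in the counts by sign.

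**Figure D1:**
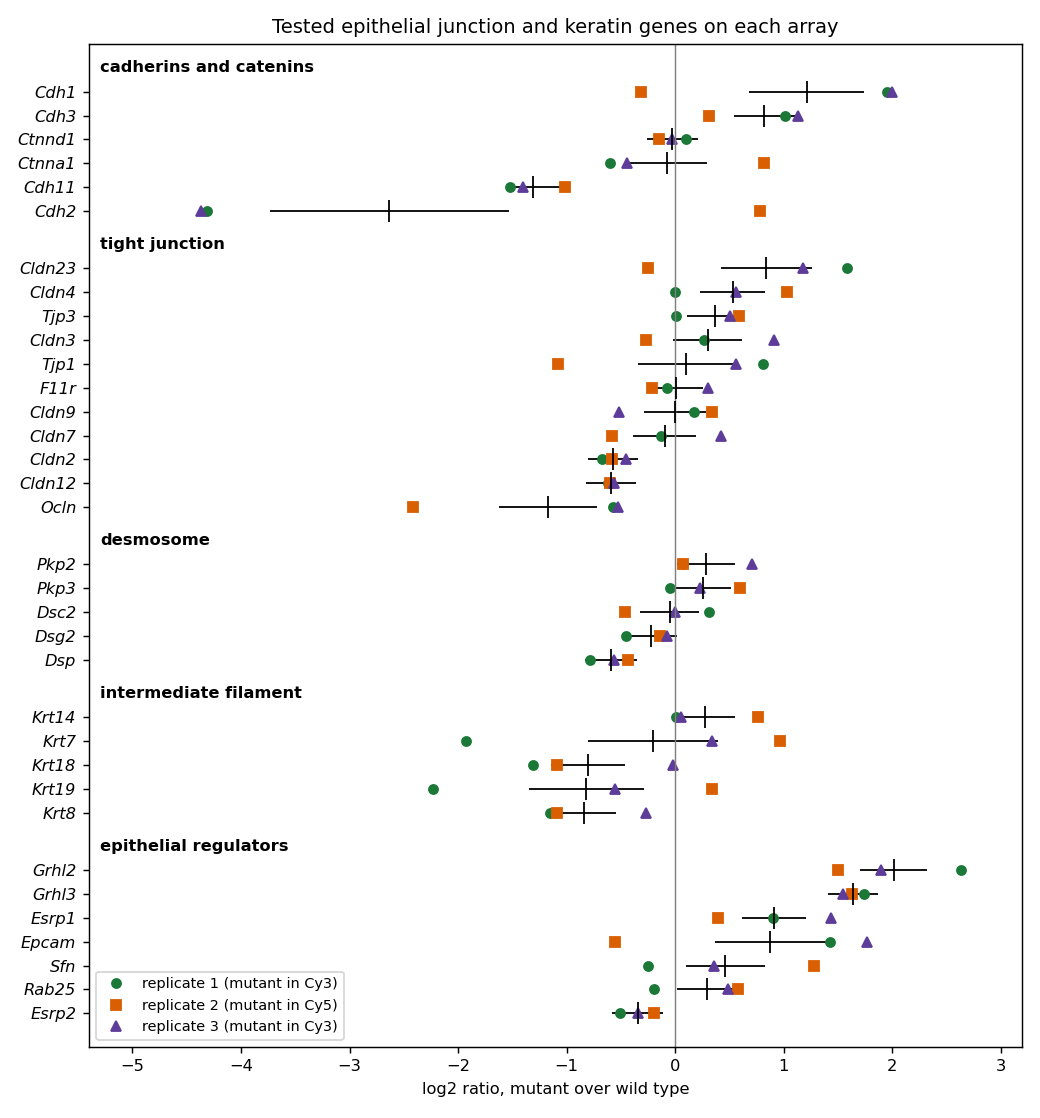
Log2 ratio of mutant over wild type (horizontal axis) of the 34 tested members on each array, grouped by role. Points are the 3 arrays, the vertical tick is the mean and the horizontal bar its SE in limma. Grhl2 and Grhl3 lie right of 0 on all 3 arrays and Cdh11 left of 0, while Cdh2 lies near −4.3 on replicates 1 and 3 and at 0.78 on replicate 2.

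The epithelial regulators had the highest median of the 5 groups, 0.88 over 7 tested genes, with none past the threshold. Without replicate 3 that median was 0.52. Grhl2 and Grhl3, grainyhead-like transcription factors that maintain epithelial identity and drive neural tube closure, had the smallest p-values of the members. Grhl2 stood at 12.64, 11.17 and 11.67 in the mutant samples of replicates 1, 2 and 3 and at 10.00, 9.66 and 9.77 in the wild type samples. Every mutant sample was above every wild type sample. The log2 ratios were 2.63, 1.50 and 1.90, with a mean of 2.01 ± 0.31, a 4.03-fold higher level (limma adjusted p = 0.0580). Grhl3 stood at 10.87, 11.06 and 11.04 in the mutant samples and 9.13, 9.43 and 9.50 in the wild type samples. Both genotypes were tight, the groups did not overlap, and the ratios of 1.74, 1.63 and 1.55 were close to each other in both dye orientations. Their mean of 1.64 ± 0.23 is a 3.11-fold higher level (limma adjusted p = 0.0559). In a fit of the channels without pairing by array, Grhl3 passed the threshold, with an adjusted p of 0.0429. Over the 14 alternatives its adjusted p ranged from 0.00261 to 0.4.

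The first 30 bases of the array probes for these 2 genes, read from the scanner files, show what the values rest on. Grhl2 has 2 probes, the one described above at chr15:37293139-37293198 of mm9, plus strand, and another upstream at chr15:37239426-37239485, while the Grhl3 probe lies at chr4:135097991-135098050, minus strand.
Grhl2, downstream probe: ccctttctgaaggacaagcaggggagactc
Grhl2, upstream probe: acaaggagagcttcaacaccatcgggaaca
Grhl3: ggaacaaatacccttgccacctactgttgt
The upstream Grhl2 probe did not stand well above background in any sample, and its mean ratio was 0.24. It therefore neither repeats nor contradicts the value of the downstream probe, and the Grhl2 result rests on 1 probe.

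Esrp1 and Esrp2, RNA-binding proteins that set epithelial splicing patterns, differed in sign. Esrp1 gave 0.90, 0.39 and 1.44, with a mean of 0.91 ± 0.30 (limma adjusted p = 0.168), and its levels overlapped between the genotypes. A second, dimmer Esrp1 probe gave −0.0094, −0.13 and 0.49, so the 2 probes of the gene do not show the same ratio. Esrp2 was below 0 on all 3 arrays with a mean of −0.35 ± 0.24. Rab25, a GTPase of apical membrane recycling, averaged 0.29 ± 0.28, and Sfn, the 14-3-3 sigma protein of keratinocytes, 0.46 ± 0.36. Each of the last 2 was below 0 on replicate 1 and above 0 on replicates 2 and 3.

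Epcam, an adhesion molecule of both epithelia and pluripotent stem cells, stood at 12.15, 12.21 and 12.76 in the mutant samples and at 10.72, 12.77 and 10.99 in the wild type samples. The 3 mutant samples were alike, and the wild type sample of replicate 2 was at the level of the highest of them while the other two were lower. The ratios were 1.43, −0.56 and 1.76, with a mean of 0.88 ± 0.51 (limma adjusted p = 0.372).

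The 6 cadherins and catenins were all tested, and their median was −0.050, with means from −2.63 for Cdh2 to 1.21 for Cdh1. Cdh1, E-cadherin, was measured on 10 spots per array at chr8:109193812-109193871. It stood at 13.31, 11.73 and 12.75 in the mutant samples and 11.36, 12.04 and 10.75 in the wild type samples. On replicates 1 and 3 the mutant sample was the higher one, and on replicate 2 the wild type sample was. The ratios of 1.95, −0.32 and 2.00 had a mean of 1.21 ± 0.53 (limma adjusted p = 0.261). Within an array the 10 spots had SDs of 0.091, 0.12 and 0.10, so the gap between replicate 2 and the others is far larger than the spread between spots.

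Cdh2, N-cadherin, showed the widest spread of any tested member. Its levels were 11.05, 13.54 and 11.76 in the mutant samples and 15.36, 12.76 and 16.13 in the wild type samples. The wild type sample of replicate 2 lay between the mutant samples, and the wild type samples of replicates 1 and 3 were above all others. Ratios were −4.31, 0.78 and −4.37, and the mean of −2.63 ± 1.10 had a limma adjusted p of 0.241. A further probe of Cdh2 gave −2.70, −0.15 and −3.39, so the probes differed in sign on replicate 2, where each was nearest to 0. With this further probe the levels were 11.84, 12.13 and 11.63 in the mutant samples and 14.54, 12.29 and 15.03 in the wild type samples. Every mutant sample was thus below every wild type sample with that probe.

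Cdh11, a cadherin of mesenchyme, was the member with the smallest p below 0. Its levels were 9.14, 7.52 and 7.90 in the mutant samples and 10.66, 8.53 and 9.30 in the wild type samples. Levels varied between arrays in both genotypes and the groups overlapped, but within every array the mutant sample was the lower one. Ratios of −1.52, −1.02 and −1.40 had a mean of −1.31 ± 0.25, a 2.49-fold lower level in the mutant (limma adjusted p = 0.0719), and the other probe of the gene averaged −0.92 with the same sign on all 3 arrays. Cdh3, P-cadherin, gave 1.01, 0.32 and 1.14, with a mean of 0.82 ± 0.28 (adjusted p = 0.180). The probes of Cdh1 and Cdh3 lie 113.8 kb apart on chromosome 8 of mm9.

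The catenins differed little. Ctnnd1, p120-catenin, which stabilises cadherins at the membrane, averaged −0.025 ± 0.23 with a 95% confidence interval of −0.63 to 0.58. Ctnna1, alpha-catenin, which links the complex to actin, averaged −0.075 ± 0.37 with an interval of −1.01 to 0.86, its replicate 2 at 0.82 and the other two below 0. A level 2-fold lower in the mutant is within the second interval.

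**Figure D2:**
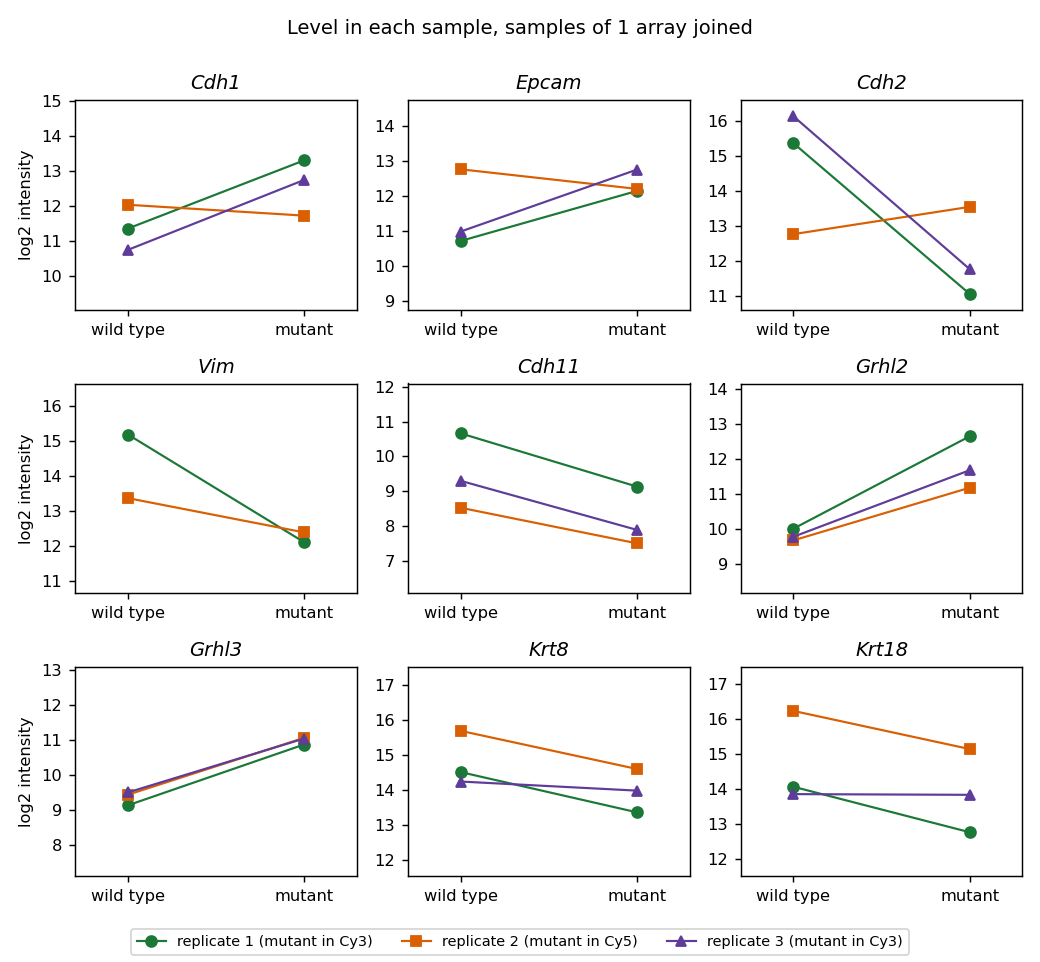
Level of 9 members in each sample as log2 intensity (vertical axis, the same span in every panel), with the wild type and mutant sample of 1 array joined by a line. Lines for Grhl2 and Grhl3 run upward and lines for Cdh11 downward on all 3 arrays, while for Cdh1, Epcam and Cdh2 the line of replicate 2 runs the other way, and Vim has 2 arrays only.

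The intermediate filament genes had the lowest group median, −0.80 over 5 tested genes, with none past the threshold. It rested on replicate 1, without which it was −0.11, and the medians of the 3 arrays were −1.31, 0.34 and −0.015. Krt8 stood at 13.37, 14.61 and 13.99 in the mutant samples and 14.52, 15.70 and 14.25 in the wild type samples. Its partner Krt18 stood at 12.76, 15.14 and 13.83 in the mutant samples and at 14.06, 16.23 and 13.85 in the wild type samples. For both genes the 2 samples of replicate 2 were the highest of their genotype, and the groups overlapped. The ratios of Krt8 were −1.16, −1.09 and −0.26, with a mean of −0.84 ± 0.29 (limma adjusted p = 0.186). Those of Krt18 were −1.31, −1.09 and −0.015, with a mean of −0.80 ± 0.34 (limma adjusted p = 0.247). The 2 genes, whose proteins pair in 1 filament, thus followed each other from array to array, with replicate 3 the nearest to 0.

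Krt8 and Krt18 are neighbours, with probes 35.1 kb apart on chromosome 15 of mm9. The probe of Krt8 used above lies at chr15:101827138-101827197 and the probe of Krt18 at chr15:101862341-101862400, and their first 30 bases are given with those of a second Krt8 probe at chr15:101828827-101828886.
Krt8, probe used: ccatccaaacccaattcagttgtattttct
Krt8, second probe: agatctccgagatgaaccgcaacatcaacc
Krt18: ggatggcagagtggtgtccgagactaatga
The second Krt8 probe gave −1.99, −0.52 and −0.37, so the 2 probes of the gene share the sign on every array and differ most on replicate 1.

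The other keratins were less uniform. Krt19, a type I keratin of simple and ductal epithelia, gave −2.23, 0.34 and −0.55, and Krt7, a type II keratin of similar places, −1.92, 0.97 and 0.34. In both, replicate 1 was the farthest below 0, and without it the means were −0.11 for Krt19 and 0.65 for Krt7. Krt14, of the basal layer of stratified epithelia, averaged 0.27 ± 0.28. Its partner Krt5 was well above background in 1 mutant and 2 wild type samples and was not tested. Krt17, of skin appendages and stressed epithelia, was above background in 2 mutant samples and 1 wild type sample, so it was not tested either. Its levels were 7.83, 7.94 and 7.28 in the mutant samples and 6.32, 6.59 and 6.41 in the wild type samples, and although dim the groups did not overlap. With most wild type signals not above background, no fold is given for it. The probes of Krt14, Krt17 and Krt19 lie within 115.1 kb on chromosome 11 of mm9.

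Vim, the vimentin of mesenchymal cells, was not tested, because its spot on replicate 3 carries the scanner software's outlier flag in Cy5. On replicates 1 and 2 it stood at 12.10 and 12.38 in the mutant samples and at 15.18 and 13.36 in the wild type samples, with ratios of −3.08 and −0.98. Both mutant samples were below both wild type samples. With the flagged spot kept, an alternative chosen after its values were seen, replicate 3 gave −2.82 and the mean was −2.29 ± 0.47 (limma adjusted p = 0.0801). Cldn6, a claudin of embryonic epithelia and pluripotent cells, was left out for the same reason. Its levels on replicates 1 and 2 were 10.10 and 11.57 in the mutant samples and 10.67 and 11.66 in the wild type samples, with ratios of −0.56 and −0.084. With the flagged spot, replicate 3 gave −0.55 and the mean was −0.40 ± 0.25 (limma adjusted p = 0.404).

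The tight junction genes were centred on 0, with a median of 0.0047 over 11 tested of 16. Ocln, occludin, was the lowest, at 7.77, 8.16 and 7.87 in the mutant samples and 8.34, 10.57 and 8.40 in the wild type samples. All mutant samples were below all wild type samples, and the gap came mainly from the high wild type sample of replicate 2. The ratios were −0.57, −2.42 and −0.53, with a mean of −1.17 ± 0.45 (limma adjusted p = 0.218), and the other probe of the gene gave −0.10, −1.61 and −0.30. Without replicate 2 the mean was −0.55.

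The claudins, which form the strands and set which ions pass, ranged from −0.59 to 0.84 among the 7 tested. Cldn12, a claudin without the usual scaffold-binding tail, gave −0.61, −0.60 and −0.56, the smallest spread of any tested member, with a mean of −0.59 ± 0.23 (limma adjusted p = 0.220). Cldn2, which forms cation pores, averaged −0.57 ± 0.23 and was well above background in 1 mutant and 3 wild type samples. At the other end Cldn23 gave 1.59, −0.25 and 1.18, with a mean of 0.84 ± 0.42. Cldn3 and Cldn4, close neighbours on chromosome 5 and both of barrier-forming epithelia, averaged 0.30 ± 0.32 and 0.53 ± 0.30. Cldn7, a basolateral claudin, averaged −0.097 ± 0.29, and Cldn9, known from the inner ear, 0.00039 ± 0.28. The 95% intervals of these 4 all included 0, from −0.51 to 1.11 for Cldn3, −0.23 to 1.29 for Cldn4, −0.85 to 0.66 for Cldn7 and −0.73 to 0.73 for Cldn9.

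Besides Cldn6, 4 claudins were too dim to be tested. Cldn1, of the skin barrier, was not well above background in any sample. Cldn5 was above background in 2 samples of each genotype, with ratios of −0.39, 1.22 and −0.28. Cldn10, which forms ion pores, was above background in 0 mutant and 2 wild type samples, and Cldn11, of myelin and testis, likewise. With no mutant signal and not every wild type signal above background, no fold is given for those 2. Cldn10 gave ratios of −0.88, −0.70 and −0.80 and Cldn11 −1.09, −0.64 and −0.30, and neither was tested.

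The scaffolds and the junctional adhesion molecule differed little on average. Tjp1, ZO-1, which ties claudins to actin, gave 0.81, −1.08 and 0.56, so its mean of 0.097 ± 0.44 hides values on both sides. Tjp3, ZO-3, averaged 0.37 ± 0.26, and F11r, JAM-A, 0.0047 ± 0.25 with a 95% interval of −0.64 to 0.65.

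The desmosome genes had the narrowest range of the 5 groups, with means from −0.59 to 0.28 and a median of −0.049 over 5 tested of 7. Dsp, desmoplakin, which binds the keratin filaments, was measured on 10 spots per array. It stood at 10.91, 12.02 and 10.53 in the mutant samples and 11.69, 12.45 and 11.10 in the wild type samples, lower in the mutant on every array with overlapping groups. The ratios were −0.78, −0.43 and −0.56, with a mean of −0.59 ± 0.24 (limma adjusted p = 0.231). The desmosomal cadherins Dsg2 and Dsc2 averaged −0.22 ± 0.24 and −0.049 ± 0.27. The plaque proteins Pkp2 and Pkp3, plakophilins, averaged 0.28 ± 0.27 and 0.26 ± 0.26. Jup, plakoglobin, and Pkp1 were each well above background in 1 wild type sample only and were not tested.

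Some of these values depended on the array with swapped dyes, as did those of all genes. Among the members the correlation of ratios was 0.887 for replicates 1 and 3, 0.129 for replicates 1 and 2, and 0.158 for replicates 2 and 3. Over all genes it was 0.879, 0.151 and 0.180. Such correlations are across genes, which are not independent, and they describe all genes as much as the members. Replicates 1 and 3 shared a sign that replicate 2 did not for 8 of 34 tested members (Cdh1, Cdh2, Cldn3, Cldn23, Ctnna1, Epcam, Krt19 and Tjp1). That is a smaller share than the 39.9% of all genes that did so. For Cdh2 the split in sign holds for the probe used only, since its further probe was below 0 on all 3 arrays. The median distance of replicate 2 from the mean of replicates 1 and 3 was 0.67 over the members and 0.73 over all genes. The difference of replicate 2 from the mean of the other two was 5.12 for Cdh2, −2.29 for Cdh1, −2.15 for Epcam and −0.015 for Grhl3. With 1 array of the swapped orientation, an effect of the dye and a difference of that pair of samples cannot be told apart.

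Without replicate 2 the limma fit called 8 members higher, against 25.7% of all genes, and 5 lower, against 21.7%. The 8 were Cdh1, Cdh3, Cldn23, Epcam, Esrp1, Grhl2, Grhl3 and Tjp1, and the 5 were Cdh2, Cdh11, Cldn12, Dsp and Krt19. Without replicate 1 or without replicate 3 no member was called. With a dye term in the fit, which leaves 1 residual degree of freedom, 5 members were called higher, against 15.9% of all genes, and 6 lower, against 14.9%. Higher were Cdh1, Cdh3, Esrp1, Grhl2 and Grhl3, and lower were Cdh2, Cdh11, Cldn2, Cldn12, Krt8 and Ocln. For Cldn2 this rests on mutant signals of which 1 of 3 was above background. Cdh1, Cdh3, Esrp1, Grhl2, Grhl3, Cdh2, Cdh11 and Cldn12 were called in both fits. Among them, dye-term estimates were 1.89 ± 0.21 for Grhl2, 1.64 ± 0.16 for Grhl3 and −1.24 ± 0.15 for Cdh11. The counts are close to what the shares over all genes give for 34 genes.

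**Figure D3:**
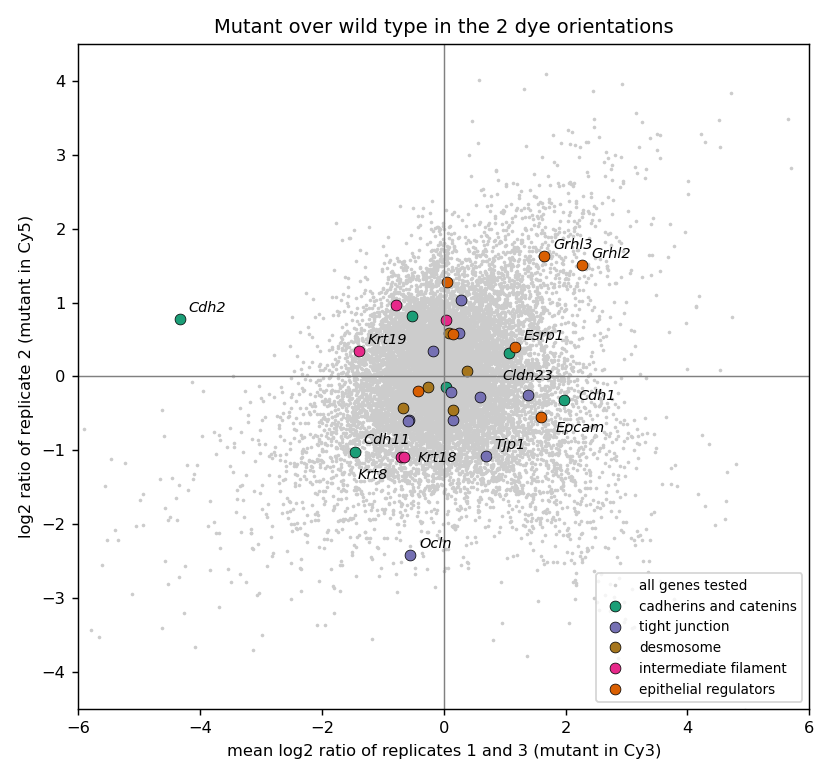
Mean log2 ratio of replicates 1 and 3, with mutant RNA in Cy3 (horizontal axis), against the log2 ratio of replicate 2, with mutant RNA in Cy5 (vertical axis), for 15428 genes in grey and the 34 tested members in colour by role. Grhl2 and Grhl3 lie high in both orientations and Cdh11 low in both, while Cdh1, Epcam, Cldn23, Tjp1, Cdh2 and Krt19 lie in quadrants of opposite sign.

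Other genes of the same pathways were read from 6 lists. The factors that drive epithelial to mesenchymal transition, which repress genes such as Cdh1, had the lowest median, −1.48 over 7 tested, with 0 past the threshold, 4 below 0 at an unadjusted p under 0.05 and 5 of 7 below 0 on all 3 arrays, where 22.7% of all genes were. Zeb2 and Twist2 passed the filter through the wild type alone, with 2 of 3 mutant samples above background. Snai1 averaged −2.33 ± 0.33 (limma adjusted p = 0.0559), Snai2 −1.67 ± 0.25 (0.0563) and Zeb2 −1.61 ± 0.26 (0.0606). Of the 10 other epithelial regulators tested, Grhl1, the third grainyhead-like factor, gave 2.71, 1.36 and 2.66 with a mean of 2.25 ± 0.36 (limma adjusted p = 0.0600). Cd24a, a surface glycoprotein, averaged −1.69 ± 0.26 (0.0580) and Klf5, a zinc finger factor of epithelia and stem cells, 0.76 ± 0.25 (0.166). The list median was 0.40, and all 3 grainyhead-like genes of the mouse were thus above 0 on every array, none past the threshold.

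The other adherens junction genes, 9 tested, had a median of −0.54, and those of smallest p were the endothelial cadherin Cdh5 at −1.49 ± 0.25, Cdh6 at −1.67 ± 0.39 and the nectin Pvrl2 at 0.94 ± 0.25. The other tight junction and polarity genes, 13 tested, had a median of 0.18, led by Cldn15 at 1.12 ± 0.25 and the adhesion molecule Jam2 at 2.17 ± 0.59. Among 8 other desmosome and hemidesmosome genes the median was 0.63 and the plaque proteins Ppl and Evpl and the collagen Col17a1 averaged 0.81 ± 0.25, 0.67 ± 0.25 and 0.90 ± 0.32. The 6 other keratins had a median of −0.55, with Krt23 at −2.25 ± 0.45, Krt20 at −0.77 ± 0.26 and Krt10 at −0.47 ± 0.24. Those 3 keratins, Cdh5 and Cdh6 were above background in 2 mutant and 3 wild type samples, and Cldn15 and Evpl in 3 mutant and 2 wild type samples, so each passed the filter through the genotype where it is brighter. None of these genes passed the threshold, and limma adjusted p-values of the 4 lists began at 0.0630, 0.0912, 0.151 and 0.0763.

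Markers of the cell types that embryoid bodies can hold were read beside the members. The 10 pluripotent cell markers were all tested, 3 were called higher and 0 lower, and the list median was 2.05, 2.31 and 2.49 on the 3 arrays. Their summed intensity ranged from 175800 to 394800 in the mutant samples and from 34800 to 68020 in the wild type samples. Such sums here and below add unlogged intensities over the probes of a list, so the brightest probes weigh most. Their ranges leave out the pairing by array. The list median was above 0 on every array, while Cdh1 and Epcam were above 0 on replicates 1 and 3 and below 0 on replicate 2. The 16 extraembryonic endoderm markers gave medians of −2.97, −1.99 and −2.30, with 1 called lower, and a summed intensity of 23440 to 188800 in the mutant samples against 274200 to 835100 in the wild type samples. Krt8 and Krt18, which that tissue expresses strongly, were farthest below 0 on replicate 1, as the list median was. They were nearest 0 on replicate 3, where the list median was −2.30. What part the proportions of these cells have in the values of Cdh1, Epcam, Grhl2, Grhl3, Krt8 and Krt18 was not tested.

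Neural markers, 5 tested, gave medians of −1.33, −0.38 and −2.96, and mesenchyme markers, 9 tested, −0.44, −0.33 and −2.29. Summed neural intensity ranged from 1671 to 3860 in the mutant samples and 2122 to 32110 in the wild type samples, and summed mesenchyme intensity from 7197 to 16980 and 14780 to 27140. On replicate 2 the ratio of the Cdh2 probe used was above 0 and that of Vim was nearest to 0. The neural median was nearest to 0 there as well, while the mesenchyme median differed little between replicate 1 (−0.44) and replicate 2 (−0.33). What part these cells have in the values of Cdh2, Cdh11 and Vim was not tested. Endothelial markers, 5 tested, had a median of −0.68, with Tie1 not above background anywhere, trophoblast markers, 5 tested, −0.00014, with Tpbpa not above background anywhere, and surface ectoderm markers, 2 tested, 0.12. Krt14, of those 2, is itself a member. Tek, whose ratio is the endothelial median, passed the filter through the wild type alone, with 0 mutant samples above background. So did Cdh5, Cdx2, Dcx and Fabp7, with 2 mutant samples each, and Lum, with 1. Pecam1 passed through the mutant alone, with 2 wild type samples. These markers thus passed through the genotype where they are brighter. Summed endothelial intensity was 959 to 1414 in the mutant samples and 1788 to 2068 in the wild type samples, and no gene of these 5 lists was called.

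**Figure D4:**
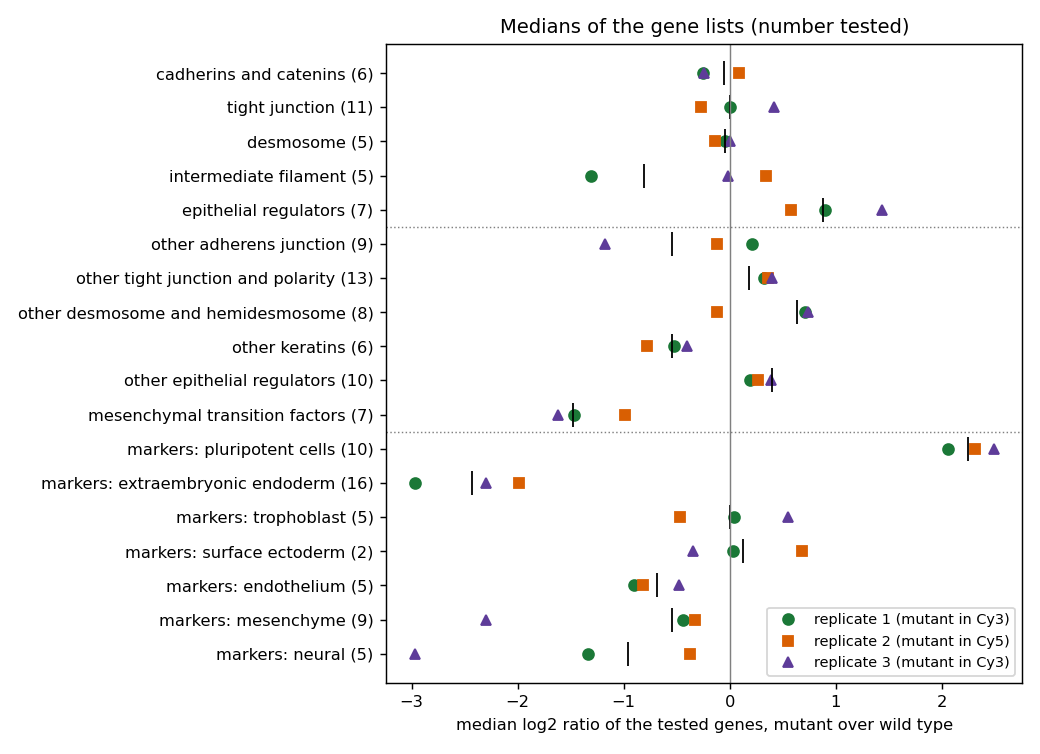
Median log2 ratio of mutant over wild type (horizontal axis) on each array for the 5 member groups, 6 lists of other pathway genes and 7 lists of cell type markers, with the number tested in brackets. Symbols are the 3 arrays and the vertical tick the median of the genes' mean ratios. Member groups lie near 0 apart from the epithelial regulators (0.88) and the intermediate filament genes (−0.80), while the pluripotent markers (2.25) and extraembryonic endoderm markers (−2.43) lie farthest out.

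Promoters of the members were read for the E-box that Snail and Zeb factors bind, since genes for these factors lay among the lowest ratios. RefSeq sequence of the 250 bases before the start site was held for 27 of the 44 members, in 34 promoters, on GRCm38.p6. None was held for Cdh1, Cdh2, Cdh3, Cdh11, Grhl2, Esrp1, Krt19 and further members, so their promoters were not read. The letters CACCTG, or CAGGTG on the other strand, occurred in 15 of the 34 member promoters (44.1%), in 14 genes, where 17.22% of all 32851 promoters and 16.9% of the 21263 promoters of protein-coding genes held them. The grainyhead-like motif AACCGGTT, the same on both strands, was in 0 of the 34 and in 0.12% of all promoters. A match describes the letters and is neither a site nor a cause, and no match says only that these letters are not in this window.

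The E-box lay in members on both sides of 0. It was found at Grhl3 and Epcam, above 0 on average, at Krt8, Krt18 and Ocln, below 0, and at Cldn4, Cldn6, Cldn7, F11r, Krt5, Krt7, Rab25, Sfn and Tjp3. The promoters read without it were those of Cldn1, Cldn2, Cldn3, Cldn5, Cldn10, Cldn11, Cldn12, Ctnnd1, Dsp, Jup, Krt14, Tjp1 and Vim. The promoters of 4 members described above are shown 5′ to 3′ on the strand of the gene, with the E-box in capitals. They lie at chr4:135573633-135573882 (Grhl3, minus strand), chr17:87635729-87635978 (Epcam, plus), chr15:102004343-102004592 (Krt8, minus) and chr15:102027966-102028215 (Krt18, plus) of GRCm38.p6.
Grhl3: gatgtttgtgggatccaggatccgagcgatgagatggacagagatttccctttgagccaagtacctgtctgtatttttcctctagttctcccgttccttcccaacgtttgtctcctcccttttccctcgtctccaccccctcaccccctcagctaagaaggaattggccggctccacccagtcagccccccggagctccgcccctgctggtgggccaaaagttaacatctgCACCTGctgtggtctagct
Epcam: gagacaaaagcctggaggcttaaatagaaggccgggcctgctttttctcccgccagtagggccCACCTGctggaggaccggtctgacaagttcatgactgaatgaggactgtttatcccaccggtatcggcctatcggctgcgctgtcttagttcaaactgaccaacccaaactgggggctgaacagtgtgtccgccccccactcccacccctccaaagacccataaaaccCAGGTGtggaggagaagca
Krt8: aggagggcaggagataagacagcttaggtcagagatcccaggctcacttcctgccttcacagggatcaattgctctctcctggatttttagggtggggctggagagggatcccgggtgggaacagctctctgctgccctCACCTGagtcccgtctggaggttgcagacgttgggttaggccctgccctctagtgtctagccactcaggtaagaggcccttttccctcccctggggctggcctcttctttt
Krt18: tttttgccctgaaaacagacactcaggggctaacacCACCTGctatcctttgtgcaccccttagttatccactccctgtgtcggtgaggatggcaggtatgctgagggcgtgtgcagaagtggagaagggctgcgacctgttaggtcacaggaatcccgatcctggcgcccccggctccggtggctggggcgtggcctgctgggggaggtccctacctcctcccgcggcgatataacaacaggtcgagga
The E-box began 19 bases before the start in Grhl3, 187 and 19 bases before it in Epcam, 111 in Krt8 and 214 in Krt18. Grhl3 and Epcam thus share the place of an E-box next to the start, on opposite strands. What part an E-box has in the ratios of these genes was not tested.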

How the data were processed

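RNA was amplified, labelled with Cy3 or Cy5 and hybridised in equal amounts, per the labels' protocols. The deposited scanner files, made with Feature Extraction 10.7.3.1 per the file headers, hold mean and background intensity of both dyes per spot, processed intensity, and other columns of flags and probe sequences, with positions on mm9. The authors' deposited value table holds log2 ratios, made with limma per the submitters' processing notes. Set against the scanner values, these run as mutant over wild type, and the medians of its 3 columns are −0.04, 0.01 and −0.01. Whether it was centred is unknown. Its column for replicate 1 correlated at 0.931 with the scanner file of replicate 3 and at 0.839 with its own, and its column for replicate 3 at 0.987 with that of replicate 1 and at 0.898 with its own. Numbers 1 and 3 may thus be exchanged between table and files. Both arrays have the same dyes, and numbers here are those of the scanner files.

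R 4.3.3 with limma 3.58.1 was used (figures with matplotlib 3.10.9). Mean signals were corrected by normexp (offset 50) and normalized by loess within arrays, with control spots given no weight in the loess. On replicate 3, 7 spots with a background above 10 times the median were given the median background of the array for this step. Outlier spots and those 7 spots were left out after normalization. Spots were averaged per probe, dim probes were left out (those not well above background in all 3 samples of either genotype), and the brightest probe stood for a gene. The mean ratio was compared with 0 by limma's moderated test (two-sided, Benjamini-Hochberg adjustment over 15428 genes), a step tested on simulated data. Levels are the 2 channels after loess and Aquantile scaling. The mutant and wild type sample of 1 array are a pair by hybridisation. All arrays lie on 1 slide with 1 scan date, which leaves no batch to test. Accessions of 26761 of 39429 probes matched RefSeq on GRCm38.p6, which gave symbols only and changed 2878, and no gene annotation of mm9 was used.

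Members and lists were chosen with earlier results of these data known. All members are named, with each array's values for those of one sign and a mean of at least 1 in size and for Cdh1, Cdh2, Epcam, Cldn6, Krt8, Krt18 and Vim, and of other lists up to 3 genes of smallest p, of which 1 is not reported here. Values of further members were added after they were seen.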

Additional observations from a re-analysis of the deposited data

How the results depend on the processing

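The small number of arrays and signal near background limit what could be called. For this reason 8 members were not tested, and the tested Cldn2, Cldn9, Dsg2, Esrp2 and Sfn had mutant signal partly at background. Genes called higher and lower over the whole array, 32 and 14 above, were 282 and 185 with Agilent's processed signals, 63 and 46 with scaling between arrays, 67 and 36 with the mean over probes, 178 and 96 unpaired (no replicate block), 2448 and 2299 with a dye term, 4 and 3 with median centring, 3 and 1 with both channels above background and 1 and 1 without a filter. They were 0 and 0 with all spots in the background fit and with the authors' deposited ratios, limma giving 1685 and 3057 genes at an unadjusted p under 0.05. Leaving out 1 replicate gave 3 to 3962 and 2 to 3343. Members called were 5 and 6 with a dye term, 1 higher unpaired, and 0 to 8 and 0 to 5 with 1 replicate left out, and 0 otherwise. Median centring moved the median of all genes from 0.035 to −0.22.

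The cadherin median was −0.29 with median centring and −0.24 to 0.050 with 1 replicate left out. The desmosome median was −0.15 with processed signals, −0.30 with median centring, 0.11 with both channels above background, −0.15 with a dye term and −0.11 to 0.092 with 1 replicate left out. With 1 replicate left out the intermediate filament median was −0.95 to −0.11 and the epithelial regulator median 0.52 to 1.17, and the latter was 0.52 with the mean over probes. Of 34 tested members, 23 kept their sign under every alternative that gave a value, 14 for most and 13 for Cldn2, Dsg2, Esrp2 and Sfn (and for Cldn9 below), which do not pass with both channels above background. The other 11 had means between −0.21 and 0.30. With median centring Cldn3 was −0.056, Cldn9 −0.066, Tjp1 −0.13, F11r −0.24, Pkp2 −0.021 and Pkp3 −0.033, with a dye term Ctnna1 was 0.15, Tjp1 −0.20, F11r −0.050 and Krt7 0.088, with processed signals Cldn9 was −0.35 and F11r −0.024, with the authors' ratios Cldn9 was −0.013 and F11r −0.027, with scaling Cldn9 was −0.010 and with all spots F11r was −0.060. With 1 replicate left out Ctnna1 ranged from −0.52 to 0.19, Cldn9 from −0.17 to 0.26, Tjp1 from −0.26 to 0.69, Krt7 from −0.79 to 0.65, Ctnnd1 from −0.088 to 0.035, Cldn7 from −0.36 to 0.15, Dsc2 from −0.23 to 0.16, Cldn3 from −0.0053 to 0.59 and F11r from −0.14 to 0.11. The causes were not tested. Keeping outlier spots, chosen after seeing the data, changed no call.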
